A study of Mus musculus with 8 samples.

Results

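The classical MHC class I pathway and the immunoproteasome were followed through 10 genes of the 32285 in the matrices, taken by symbol and all found: the heavy chains H2-K1 and H2-D1, the light chain B2m, the peptide transporter subunits Tap1 and Tap2, the loading factor Tapbp, the regulator Nlrc5, and the immunoproteasome subunits Psmb8, Psmb9 and Psmb10. Their RNA was measured in CD45.2+ cells sorted from the brain parenchyma of perfused mice by single-cell RNA sequencing with a 5′ droplet kit, in 8 libraries with 1 library per condition. WT (C57BL/6J) mice and App NL-G-F mice, in which the endogenous App gene carries a humanized Aβ sequence with the Swedish, Arctic and Iberian mutations, were both used in 4 conditions. Controls drank water only, acute colitis mice received 2% DSS (dextran sulfate sodium, which injures the colon) for 7 days, chronic colitis mice received 3 cycles of 2% DSS for 5 days with water between them, and food allergy mice were sensitized to OVA (ovalbumin) 3 times and then given it orally for 7 days. The labels give an age of 16 weeks and list male and female mice. In the same animals an antibody against CD45 was injected before perfusion, but nothing in the counts tells which cells it had reached. Each library pooled cells that carried hashtag antibodies, and the cells of 1 hashtag in 1 library are called a hashtag group here. The number of hashtags differed from the number of mice given for 2 conditions, so a hashtag group may not be 1 mouse.

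MHC class I molecules show peptides from inside the cell to CD8 T cells, and almost every nucleated cell carries them. The proteasome cuts proteins into peptides, and in lymphoid cells and cells exposed to interferon-γ its constitutive catalytic subunits are replaced by PSMB8, PSMB9 and PSMB10, which changes where proteins are cut. TAP1 and TAP2 pump the peptides into the endoplasmic reticulum, where tapasin (Tapbp) holds the empty heavy chain and β2-microglobulin at the transporter until a peptide binds. NLRC5 is a transactivator that works at the promoters of class I genes, B2m, Tap1 and the immunoproteasome genes.

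The promoters of a heavy chain and of its light chain are shown because H2-K1 and B2m had the most alike levels of any pair of members across cell types. The sequences are from RefSeq on GRCm38.p6 and end at the base before the annotated transcript. Capitals mark letters matching GAANNGAAA or, in a longer form, GAAA and GAAA 2 bases apart (interferon-response type), GGGA and CC 4 bases apart (NF-κB type), TGACG (the core of a cyclic AMP response type motif) and CCAAT, searched on both strands, and in both promoters a match of the NF-κB type on one strand overlaps one on the other. H2-K1 lies at chr17:34000348-34000468 on the minus strand, and B2m at chr2:122147538-122147685 on the plus strand.
H2-K1: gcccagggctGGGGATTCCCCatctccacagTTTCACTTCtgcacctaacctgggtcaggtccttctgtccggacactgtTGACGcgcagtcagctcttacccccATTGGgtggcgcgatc
B2m: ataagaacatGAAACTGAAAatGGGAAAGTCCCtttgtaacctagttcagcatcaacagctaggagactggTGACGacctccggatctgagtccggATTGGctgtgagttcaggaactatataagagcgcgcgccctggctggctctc
Both promoters held an NF-κB type match beside an interferon-response type match, in opposite order, followed by TGACG and the reverse complement of CCAAT.

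H2-D1 carried nearly the same stretch as H2-K1, and both are printed because the levels of these heavy chains came apart in neutrophils. The H2-K1 element lies at chr17:34000429-34000458 on the minus strand and the H2-D1 element at chr17:35262923-35262952 on the plus strand.
H2-K1 element: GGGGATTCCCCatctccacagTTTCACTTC
H2-D1 element: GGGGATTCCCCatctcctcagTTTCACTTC
They were identical at 29 of 30 bases, the difference being A18T, with the H2-K1 base first and positions counted from 1 at the 5′ end. Over the whole length printed for H2-K1, its promoter and that of H2-D1 were identical at 89.3% of bases. Psmb9 and Tap1 start back to back, with 225 bases between their RefSeq starts (chr17:34187331-34187555) that held 1 TGACG and 1 CCAAT. Of the 8 members with a promoter window of 250 bases, 2 held GAANNGAAA, 1 its longer form, 3 the NF-κB type, 5 held TGACG and 6 held CCAAT. Over 27025 promoters of the same length the shares were 6.339%, 3.038%, 17.332%, 17.861% and 34.464%. The Psmb9 and Tap1 windows both contain the stretch between their starts, so its 1 TGACG and 1 CCAAT were counted for each gene. The H2-K1 and H2-D1 promoters are nearly alike as well, so the 8 windows are not independent. A match is a description of the letters only.

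Most members, 7 of 10, lie in the MHC region of chromosome 17. By GENCODE vM21 these are Tapbp (17:33915899-33929292, plus strand), H2-K1 (17:33996017-34000347, minus), Psmb9 (17:34181987-34187764, minus), Tap1 (17:34187553-34197225, plus), Psmb8 (17:34197721-34201454, plus), Tap2 (17:34203527-34216321, plus) and H2-D1 (17:35262730-35267499, plus). B2m lies at 2:122147686-122153083 on the plus strand, Nlrc5 at 8:94434356-94527272 on the plus strand and Psmb10 at 8:105935735-105938444 on the minus strand. The annotated Psmb9 and Tap1 genes overlap by 212 bases on opposite strands. The promoter windows were set from RefSeq starts, which can differ from these. Those of H2-D1, Tapbp, Psmb8 and Psmb9 lay wholly inside the genes as given here, and so did the printed H2-D1 element. H2-K1 and H2-D1 are alike in coding sequence, but their transcripts shared only 2 of 1530 (0.13%) and 2 of 2013 (0.1%) windows of 90 bases. The other class I genes are similar to each other and to these, so counts of single H2-Q and H2-T genes are uncertain.

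A total of 50083 cells passed the filters, with 25614394 to 54618574 UMIs (unique molecular identifiers, 1 per captured RNA molecule) in the cells of each library and a median of 2780 to 4130 UMIs per cell. Of 48568 distinct barcodes, 1481 occurred in more than 1 library. A cell was assigned to a type when at least 3 marker genes of that type were detected. Cells in which another lineage came near in the share of its markers detected were left out. The B and T cell gates also required or excluded single genes, and no member served as a marker. In all, 7994 cells (16.0%) matched no type and 6582 (13.1%) were left out for another lineage. The gates took 4924 neutrophils, 363 neutrophil precursors, 6237 B cells, 1033 developing B cells, 1438 CD4 and 4124 CD8 T cells, 1722 γδ T cells, 3093 NK cells, 3771 ILC2 (group 2 innate lymphoid cells), 1724 monocytes, 1428 macrophages, 1468 type 1 conventional dendritic cells (cDC1) and 565 type 2 (cDC2), besides smaller types. Although the tissue was brain, only 60 cells were gated as microglia, and 139 cells of a CD45.2+ sort were gated as fibroblasts. Hashtag groups fell apart in the summed level of 10 immediate-early genes (genes switched on within minutes of stimulation) in T cells, with 11 groups at 555 to 922 CPM, 16 groups at 2720 to 5976 CPM and 3 groups with few T cells placed in neither set. Apart from B cells, the WT acute colitis groups that could be tested were from the high set. For B cells 1 group placed in neither set entered as well. Where all 4 WT control groups could be tested, 2 came from each set. Neutrophils, monocytes, macrophages and plasma cells had only 2 WT control groups. The high set gave all groups tested in cDC1 and cDC2. This set was therefore added as a second term in an alternative fit of the condition comparisons, except in types whose groups all came from the same set. In cDC1 and cDC2 that fit had no second term, so their differences were not adjusted for the set.

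The heavy chains and B2m were highest in T cells, NK cells and ILC2. H2-K1 and B2m were lowest in neutrophils, and H2-D1 was lowest in erythroid cells. Levels are UMIs of a gene divided by all UMIs of a gated type in a library, expressed as CPM, given as mean ± SD over libraries for the 19 types with at least 20 cells in 3 or more libraries. A level can be compared between types but not between genes, since capture differs from gene to gene. These levels carry no test.

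H2-K1, a heavy chain, reached 3638 ± 274 CPM in NK cells, 3529 ± 408 CPM in CD4 T cells and 3512 ± 328 CPM in CD8 T cells (n = 8). ILC2 followed with 3268 ± 241 CPM and γδ T cells with 2873 ± 186 CPM, and the libraries of these 5 types overlapped. The next type, B cells, stood at 1524 ± 110 CPM. Their mean was 1.89-fold below that of γδ T cells, and they were lower in 8 of 8 libraries, without overlap. Macrophages (1333 ± 144 CPM), cDC2 (1020 ± 173 CPM), cDC1 (873 ± 103 CPM), developing B cells (774 ± 120.7 CPM) and monocytes (688 ± 153 CPM) lay in between. Neutrophil precursors had 476 ± 74.1 CPM (n = 7), and neutrophils had the lowest level, 197 ± 99.2 CPM (n = 8), 18.4-fold below NK cells.

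H2-D1, the other heavy chain, had a narrower span of 8.78-fold, from 2912 ± 210 CPM in NK cells to 332 ± 56.2 CPM in erythroid cells (n = 4). Macrophages reached 1862 ± 215 CPM and B cells 1774 ± 92.3 CPM. Here neutrophils were not at the bottom, with 1061 ± 234 CPM against 518 ± 35.5 CPM in their precursors. B2m, without which the heavy chains do not reach the surface, spanned 5.62-fold, from 1966 ± 130 CPM in CD4 T cells to 350 ± 62.5 CPM in neutrophils. Plasma cells, at 1457 ± 193 CPM, ranked higher for B2m than for either heavy chain. No neighbouring types in the order of B2m levels had separate ranges over libraries.

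The transporter and loading genes did not share this order. Tap1 was highest in cDC1 at 237 ± 27.0 CPM and lowest in neutrophils at 21.5 ± 5.33 CPM, an 11-fold span. Tap2 spanned 5.27-fold, with 211 CPM in CD4 T cells, 189 ± 19.0 CPM in cDC1 and 40.0 CPM in erythroid cells. Tapbp was highest in the fibroblast gate at 337 ± 56.3 CPM (n = 3), followed by plasmacytoid dendritic cells (287 CPM) and NK cells (239 CPM), and was low in developing B cells at 51.3 ± 17.8 CPM.

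Nlrc5, the transactivator, was highest in CD8 T cells at 70.4 ± 8.69 CPM, ahead of CD4 T cells at 51.5 ± 12.1 CPM and NK cells at 45.5 ± 7.96 CPM. γδ T cells (35.4 CPM), ILC2 (23.7 CPM), macrophages (22.7 CPM) and cDC1 (20.9 ± 3.59 CPM) followed, and neutrophils had 4.01 CPM. Basophils had no Nlrc5 count among 583378 UMIs, and the exact Poisson upper limit was 6.32 CPM, so a level like that of neutrophils was not detectable at this depth.

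The immunoproteasome subunits PSMB8 and PSMB9 peaked in cDC1. Psmb8 (the chymotrypsin-like subunit LMP7) had 1205 ± 88.4 CPM there against 1026 ± 69.7 CPM in CD8 T cells, the second type, 1.17-fold apart and without overlap between libraries. Psmb9 (LMP2) had 633 ± 47.0 CPM in cDC1 against 346 ± 27.8 CPM in CD8 T cells, 1.83-fold apart and again without overlap. Psmb10 (MECL-1) had another order, with 270 ± 18 CPM in NK cells, 241 CPM in CD8 T cells and 149 CPM in cDC1. All these subunits were low in neutrophils, at 99.7 ± 8.74 CPM for Psmb8, 84.7 ± 10.7 CPM for Psmb9 and 13.8 ± 4.03 CPM for Psmb10, and the level of Psmb10 was 3.24-fold lower than in erythroid cells, the next type up, without overlap.

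**Figure D1:**
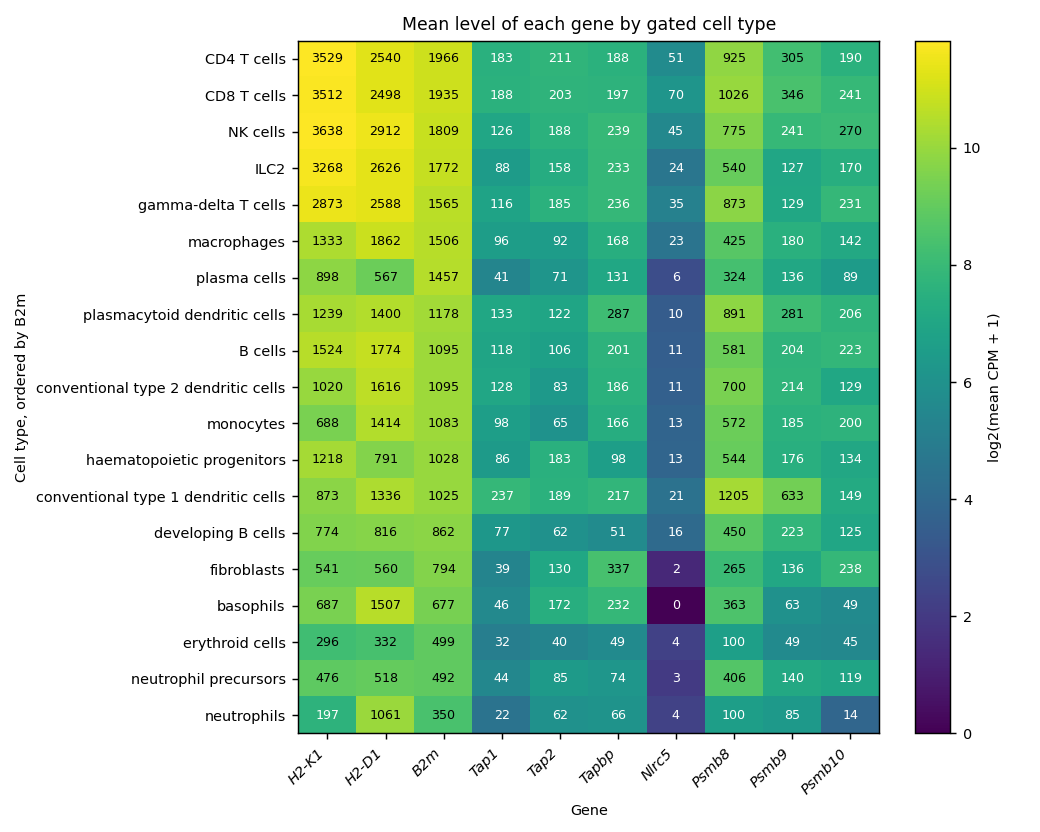
Mean level over libraries of each of the 10 genes (columns) in 19 gated cell types (rows, ordered by B2m), with the mean CPM printed in each cell and the colour giving log2(mean CPM + 1). H2-K1 stands at 2873 CPM or more in the 5 T, NK and ILC2 rows and at 197 CPM in neutrophils, whereas Psmb8 (1205 CPM) and Psmb9 (633 CPM) are highest in the cDC1 row.

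A scaling that sets most genes level between types changed part of this order. The trimmed mean of M values (TMM) gives a factor below 1 to a sum in which abundant RNAs take many of the UMIs, and the factors averaged 0.455 in neutrophils and 0.470 in plasma cells against 0.843 to 1.38 in the other types. With these factors H2-K1 was highest in CD8 T cells (3286 CPM) and lowest in erythroid cells (292 CPM), with neutrophils at 422 CPM, whereas H2-D1 in neutrophils stood at 2333 CPM, rank 4 of the 19 types. B2m was then highest in plasma cells (3294 CPM). Tap1, Psmb8 and Psmb9 stayed highest in cDC1, at 281, 1431 and 754 CPM, Psmb10 stayed highest in NK cells and lowest in neutrophils, and Nlrc5 stayed highest in CD8 T cells.

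Types differed more than libraries did. The SD of log2 level between types was 7.07 times the SD between libraries within a type for H2-K1, 5.90 times for H2-D1, 6.19 times for B2m, 3.68 times for Tap1 and for Tap2, 3.78 times for Tapbp, 2.77 times for Nlrc5, 7.07 times for Psmb8, 4.99 times for Psmb9 and 4.32 times for Psmb10. The median over 10962 genes with at least 20 CPM in 1 type was 2.78, so Nlrc5 was at the median and the heavy chains, B2m and the immunoproteasome genes were above it.

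Among types too small for a value in 3 libraries, the 109 migratory dendritic cells, pooled over libraries, held high levels of every member, with 3519 CPM of H2-K1, 3845 CPM of B2m, 319 CPM of Tap1, 121.1 CPM of Nlrc5, 1705 CPM of Psmb8 and 684 CPM of Psmb9. For every member but H2-K1 the pooled level lay above the highest mean among the 19 types. The 60 cells of the microglia gate had 594 CPM of H2-K1 (exact Poisson 95% interval 495 to 707), 872 CPM of H2-D1 (751 to 1007) and 1287 CPM of B2m. The intervals cover counting error only.

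The genes whose levels were most like those of H2-K1, B2m, Psmb8 and Nlrc5 were found across 138 library-by-type sums of 19 types. These correlations are descriptions, since sums of 1 type and of 1 library are not independent. H2-K1 was most like H2-Q7 (Pearson r = 0.92), B2m (0.92) and H2-Q4 (0.91), all class I genes, and B2m was most like H2-K1, H2-T22 (0.83) and Ly9 (0.81). Psmb8 was most like Tap1 (0.90), its neighbour in the MHC region, Psme1 (0.88), a subunit of the interferon-induced PA28 proteasome activator, and Dock10 (0.86). Nlrc5 was most like Prkch (0.88), a kinase gene of lymphocytes, AW112010 (0.83) and Ifi206 (0.83). Between members, r was 0.775 for H2-K1 with H2-D1, 0.832 for the head-to-head pair Psmb9 and Tap1, and 0.433 for H2-K1 with Psmb9.

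Related cell types were then compared within libraries, to see which members separate a type from its nearest neighbour in lineage. UMIs summed per type and library were fitted with edgeR's quasi-likelihood test over 13489 genes with library as a block, TMM scaling and Benjamini-Hochberg adjustment over all genes, and a gene was called at an adjusted p below 0.05.

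The cDC1, specialised in showing captured antigen to CD8 T cells, had more RNA of the transporter and the immunoproteasome than cDC2, but not detectably more of the heavy chains or B2m. In cDC1 7 of the 10 members were higher and none lower, where 28.4% of all genes tested were called in either direction and 14.5% as higher. Over libraries, monocyte markers summed to 843 to 1708 CPM in cDC2 and 241 to 385 CPM in cDC1. Macrophage markers summed to 459 to 2363 CPM in cDC2 and 19.9 to 371 CPM in cDC1. Neutrophil markers reached 2232 CPM in the cDC1 of WT chronic colitis. The part of these in the differences was not tested. Psmb9 ranged over 569.5 to 693.4 CPM (median 621.5) in the 8 cDC1 sums and over 183.2 to 260.7 CPM (median 213.3) in the 8 cDC2 sums. The ranges were far apart, and the log2 fold change was 1.76 (SE 0.10, edgeR adjusted p = 1.31e-33). Tap2 ranged over 160.8 to 212.3 CPM (median 191.2) in cDC1 and over 65.96 to 118.4 CPM (median 79.57) in cDC2, without overlap and with a log2 fold change of 1.38 (SE 0.11, edgeR adjusted p = 1.16e-22). Tap1 ranged over 206.1 to 283.9 CPM (median 228.4) against 116 to 152.5 CPM (median 124.5). Every cDC1 library thus exceeded every cDC2 library for Tap1 too (log2 fold change 1.08, SE 0.11, edgeR adjusted p = 3.08e-16). Psmb8 ranged over 1116 to 1364 CPM (median 1188) against 640.3 to 814.9 CPM (median 671.6), with a log2 fold change of 0.98 (SE 0.09, edgeR adjusted p = 1.04e-18).

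Nlrc5 was higher in cDC1 by 1.19 on the log2 scale (SE 0.25, edgeR adjusted p = 4.79e-05), but its ranges of 16.97 to 28.75 CPM and 6.28 to 21.31 CPM overlapped. Tapbp (0.41) and Psmb10 (0.38) were higher by little. H2-K1, at a median of 887.1 CPM in cDC1 and 1051 CPM in cDC2, differed by -0.03 on the log2 scale (95% interval -0.25 to 0.18), H2-D1 by -0.09 and B2m by 0.10, and none of these was called. Scaling by library size alone moved the median of all genes by 0.145, left 5 members higher, lost Tapbp and Psmb10, and called H2-D1 lower in cDC1 (-0.28). The share of all called genes that were higher in cDC1 went from 50.9% to 30.19% with that scaling.

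**Figure D2:**
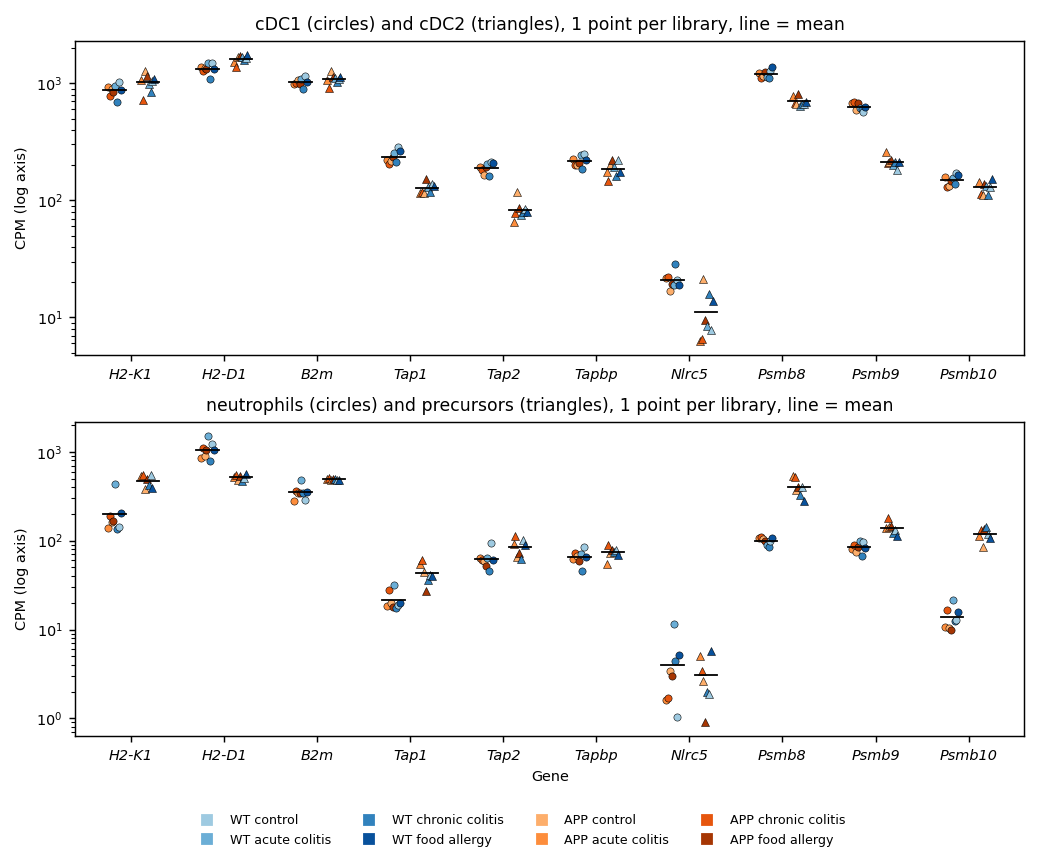
Level of each gene (CPM, log axis) in each library, for cDC1 (circles) and cDC2 (triangles) in the upper panel and for neutrophils (circles) and their precursors (triangles) in the lower panel, coloured by condition, with a line at the mean. Psmb9 and Tap2 separate cDC1 from cDC2 in every library, and in neutrophils Psmb10 and Psmb8 fall below the precursors while H2-D1 stands above them.

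Other genes of the pathway were higher in cDC1 as well, above all those for proteasome assembly and activation. Of the 4 genes for proteasome assembly and activation, 3 were higher, with a median log2 fold change of 1.02 over the list beside 0.02 over all genes. They were Psme1 (1.29) and Psme2 (0.90), the PA28 subunits, and Pomp (1.13), the proteasome maturation protein. Of 9 genes for constitutive catalytic and other 20S subunits 6 were higher, led by Psmb7 (0.63) and Psmb5 (0.46). Of 6 loading and trimming genes 3 were higher, namely Tapbpl (0.98), a relative of tapasin, Pdia3 (0.78) and Calr (0.38), chaperones of heavy chain folding. Interferon-induced genes went both ways, with 5 of 14 higher and 5 lower, the largest differences being in Gbp3 (-2.85), Gbp7 (-2.25) and Gbp2 (-2.16). Among 14 regulators of class I expression 3 were higher and 3 lower, led by Irf8 (2.66), which cDC1 need for their development, and Irf1 (-1.21).

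The RNA balance of immunoproteasome and constitutive subunits was read from the UMI ratio of each subunit to the one it replaces. This ratio does not depend on scaling. Exchange of the protein subunits in proteasomes was not measured, and the genes of a ratio may be captured unequally. In cDC1 the ratio of Psmb9 to Psmb6 UMIs was 3.17 ± 0.58 against 1.12 ± 0.15 in cDC2, 2.82-fold higher and higher in 8 of 8 libraries (exact sign-flip permutation test over libraries, two-sided p = 0.00781, the smallest possible, adjusted p = 0.0171 over 24 ratios). The ratio of Psmb8 to Psmb5 was 5.54 against 3.91, also higher in 8 of 8 libraries. That of Psmb10 to Psmb7 was 1.93 against 2.40, which did not pass (exact p = 0.211). For scale, CD8 T cells had a Psmb10 to Psmb7 ratio of 6.03, and erythroid cells had ratios of 0.433 for Psmb8 to Psmb5 and 0.199 for Psmb9 to Psmb6.

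Mature B cells had more of most members than developing B cells, above all Tapbp and the heavy chains. In B cells 8 of the 10 members were higher and none lower, where 52.7% of all genes were called and 29.8% were higher. Tapbp ranged over 175.4 to 227.8 CPM (median 198.9) in B cells and over 17.07 to 76.67 CPM (median 50.86) in developing B cells, without overlap, with a log2 fold change of 1.98 (SE 0.12, edgeR adjusted p = 1.51e-31). H2-D1 ranged over 1698 to 1954 CPM (median 1734) against 709 to 1069 CPM (median 771.9), and H2-K1 over 1324 to 1662 CPM (median 1536) against 648.5 to 1011 CPM (median 728.5). Neither heavy chain overlapped between these stages, and the log2 fold changes were 1.21 (SE 0.09, edgeR adjusted p = 2.25e-25) and 1.06 (SE 0.11, edgeR adjusted p = 4.87e-16). Psmb10 (0.89), Tap2 (0.82), Tap1 (0.67), Psmb8 (0.45) and B2m (0.42) were also higher, whereas Psmb9 (-0.05) and Nlrc5 (-0.28) were not called.

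In mature B cells 9 of 10 other class I genes tested were higher, with a median of 1.46 beside 0.13 over all genes, led by H2-Q10 and H2-T24 (both 2.44). Of 14 regulators 12 were higher. All 9 constitutive 20S genes tested were lower (median -0.53). The subunit ratios were higher in mature than in developing B cells, at 3.79 against 1.13 for Psmb10 to Psmb7, 2.66 against 1.44 for Psmb8 to Psmb5 and 0.968 against 0.700 for Psmb9 to Psmb6, each in 8 of 8 libraries (exact sign-flip permutation adjusted p = 0.0171 each).

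Neutrophils parted the heavy chains from each other and had less Psmb8 and Psmb10 RNA than their precursors. Because of the scaling described above, only directions that held under both scalings are read here, and in this pair 66.7% of all genes were called, 34.3% as higher and 32.4% as lower. H2-D1 ranged over 788.2 to 1506 CPM (median 1048) in the 8 neutrophil sums and over 466.5 to 570.4 CPM (median 523) in the 7 precursor sums. The ranges did not overlap, and H2-D1 was higher in neutrophils by 2.24 on the log2 scale with TMM (SE 0.09, edgeR adjusted p = 8.94e-46) and by 1.01 with library size alone. Psmb10 ranged over 9.885 to 21.66 CPM (median 12.75) against 84.61 to 143.5 CPM (median 119.3), and was lower by both scalings, at -1.91 (SE 0.11, edgeR adjusted p = 2.92e-32) and -3.20. Psmb8 ranged over 84.55 to 108.9 CPM (median 101) against 279.4 to 533 CPM (median 398.7), with log2 fold changes of -0.74 (SE 0.09, edgeR adjusted p = 1.31e-12) and -2.01. For both subunits every neutrophil library was below every precursor library. The 60 precursors of WT food allergy had a median of 1277 UMIs per cell, against 13999 to 25030 in the other libraries used. They gave the lowest Psmb8 and the highest H2-D1 level among the precursor sums. The part of this depth in the differences was not tested.

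The other members depended on the scaling, which moved the median of all genes by 1.115 between the fits. TMM called B2m (0.72), Tap2 (0.81) and Psmb9 (0.52) higher in neutrophils together with Nlrc5 (1.35) and Tapbp (1.07), and library size alone called B2m (-0.51), Tap2 (-0.46), Psmb9 (-0.74), H2-K1 (-1.33) and Tap1 (-1.11) lower. In all, 6 members were higher and 2 lower with TMM, against 1 higher and 7 lower with library size alone, and the share of all called genes that were higher went from 51.45% to 19.91%. With TMM all 6 loading and trimming genes were lower, led by Calr (-3.05) and Erap1 (-1.78), the peptide trimming enzyme. Free of scaling, the ratio of Psmb9 to Psmb6 was 2.01-fold higher in neutrophils (7 of 7 libraries) and that of Psmb10 to Psmb7 was 0.295-fold that in precursors (lower in 7 of 7 libraries, exact sign-flip permutation adjusted p = 0.025 each). The ratio of Psmb8 to Psmb5, 0.821-fold, did not pass (exact adjusted p = 0.0625).

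The ratio of H2-D1 to H2-K1 UMIs, which no scaling can move, was 6.18 ± 1.16 in neutrophils and 1.11 ± 0.19 in precursors of the same 7 libraries. It was 5.55-fold higher in neutrophils and higher in 7 of 7 libraries (exact sign-flip permutation test, two-sided p = 0.0156, the smallest possible with 7 libraries, adjusted p = 0.025). Over all 8 libraries neutrophils had 5.84 (range 3.46 to 8.66), followed by basophils at 2.21, monocytes at 2.09, cDC2 at 1.61 and cDC1 at 1.53. Lymphocytes of the T and NK lineages lay under 1, with 0.902 in γδ T cells, 0.801 in NK cells and 0.712 in CD8 T cells, and plasma cells had the lowest ratio at 0.636. The value for a single type is not the ratio of molecules, since the genes may be captured unequally, but the contrast between types is not touched by that.

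**Figure D3:**
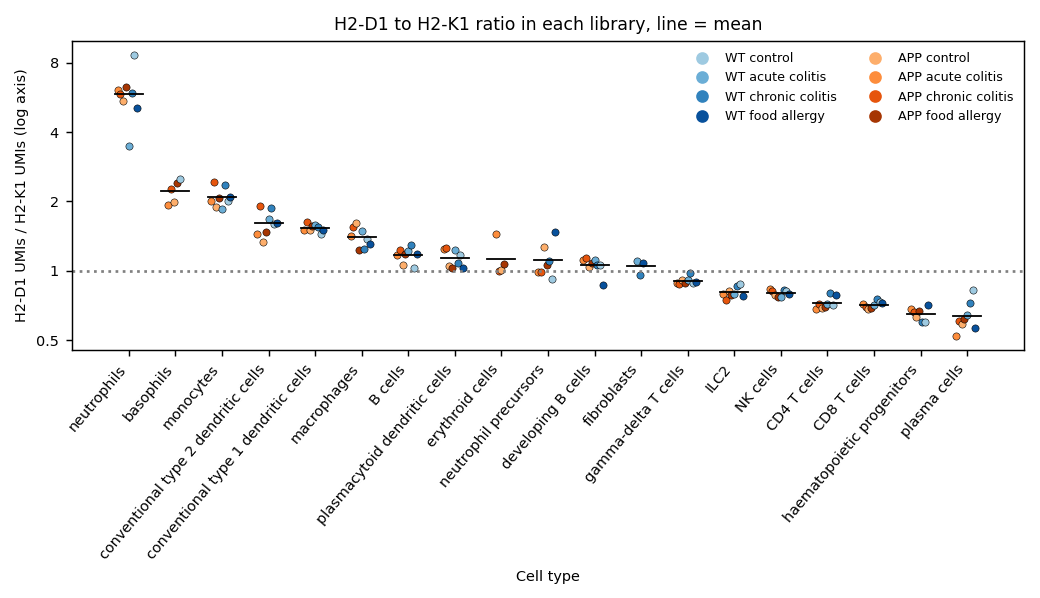
Ratio of H2-D1 to H2-K1 UMIs (log axis) in each library for 19 gated cell types ordered by their mean (line), with points coloured by condition and a dotted line at 1. Neutrophils lie at 3.46 to 8.66, above all other types, and T cells, NK cells and ILC2 lie below 1.

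Droplets also hold RNA released into the suspension, and its share was estimated. The sum of 16 B and T cell markers stood in neutrophils at 1.51% to 8.42% of their level in empty droplets. At that rate free RNA would bring 10.3 to 74.6 CPM of H2-K1 to neutrophils, where 134 to 435 CPM were measured. The same rate would bring 1.96 to 8.90 CPM of Psmb10, where 9.885 to 21.66 CPM were measured. These ranges are over libraries, and the estimated share was largest in single libraries of WT mice. For Psmb10 it was 7.27 of 12.6 CPM in WT chronic colitis and 8.90 of 15.8 CPM in WT food allergy. For H2-K1 it was 74.6 of 206 CPM in WT food allergy.

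Macrophages exceeded monocytes for the heavy chains and B2m and fell short for a pair of the immunoproteasome genes. There were 5 members higher and 2 lower in macrophages, where 48.2% of all genes were called, 26.4% as higher and 21.9% as lower. H2-K1 ranged over 1138 to 1534 CPM (median 1346) in macrophages and over 437 to 952 CPM (median 699.9) in monocytes, without overlap, with a log2 fold change of 0.98 (SE 0.11, edgeR adjusted p = 6e-14). H2-D1 (0.41), B2m (0.49), Tap2 (0.54) and Nlrc5 (0.91) were higher too, with overlapping ranges for all 4. Psmb8 (-0.41) and Psmb10 (-0.46) were lower in macrophages, and Tap1 (0.03), Tapbp (0.09) and Psmb9 (-0.02) were not called. The constitutive 20S genes were lower in 9 of 9 (median -0.87). The ratio of Psmb8 to Psmb5 was 1.51-fold and that of Psmb9 to Psmb6 1.47-fold higher in macrophages. Each was higher in 8 of 8 libraries (exact sign-flip permutation adjusted p = 0.0171 each). That of Psmb10 to Psmb7, 1.13-fold, was higher in 5 of 8 libraries and did not pass (exact sign-flip permutation p = 0.406). The H2-D1 to H2-K1 ratio was lower in macrophages in 8 of 8 libraries, at 1.40 against 2.09.

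In macrophages 7 of 10 other class I genes were higher, led by H2-Q6 (2.80), Mr1 (2.40), which presents metabolites to MAIT cells, and H2-Q7 (1.96). All 6 class II genes used for comparison were higher as well, with a median of 2.68 beside 0.11 over all genes.

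Within T and NK cells the heavy chains were nearly level, and most processing genes among the members were graded. CD8 T cells exceeded CD4 T cells in Nlrc5 (log2 fold change 0.56, SE 0.16, edgeR adjusted p = 0.0097), Psmb10 (0.45), Psmb9 (0.29) and Psmb8 (0.27), where 8.58% of all genes were called, 4.14% as higher and 4.44% as lower. With library size alone only Psmb10 was called, and the share of called genes that were higher in CD8 T cells went from 48.27% to 26.89%. H2-K1, H2-D1 and B2m were not called.

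NK cells had less Nlrc5, Tap1, Psmb9, Psmb8 and Tap2 than CD8 T cells, where 21.2% of all genes were called, 10.4% as higher and 10.9% as lower. Psmb9 ranged over 209.9 to 261.9 CPM (median 242.6) in NK cells and over 299.9 to 382.9 CPM (median 347.5) in CD8 T cells, and Psmb8 over 707.5 to 829.6 CPM (median 779.7) against 914.3 to 1089 CPM (median 1050). Neither overlapped, with log2 fold changes of -0.66 and -0.54. Nlrc5 ranged over 28.01 to 54.62 CPM (median 46.48) in NK cells and over 57.89 to 84.37 CPM (median 70.5) in CD8 T cells, again apart (-0.78), and Tap1 differed by -0.71. H2-K1 (-0.09), H2-D1 (0.08), B2m (-0.23), Tapbp (0.14) and Psmb10 (0.03) were not called. With library size alone 2 members, H2-D1 and Tapbp, were higher and 4 lower, and the share of called genes that were higher in NK cells went from 48.9% to 68.68%. In NK cells 7 of 14 interferon-induced genes were lower and none higher, led by Ifit3 (-1.26). Of 6 loading and trimming genes outside the members, 4 were higher in NK cells and none lower (median 0.39).

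**Figure D4:**
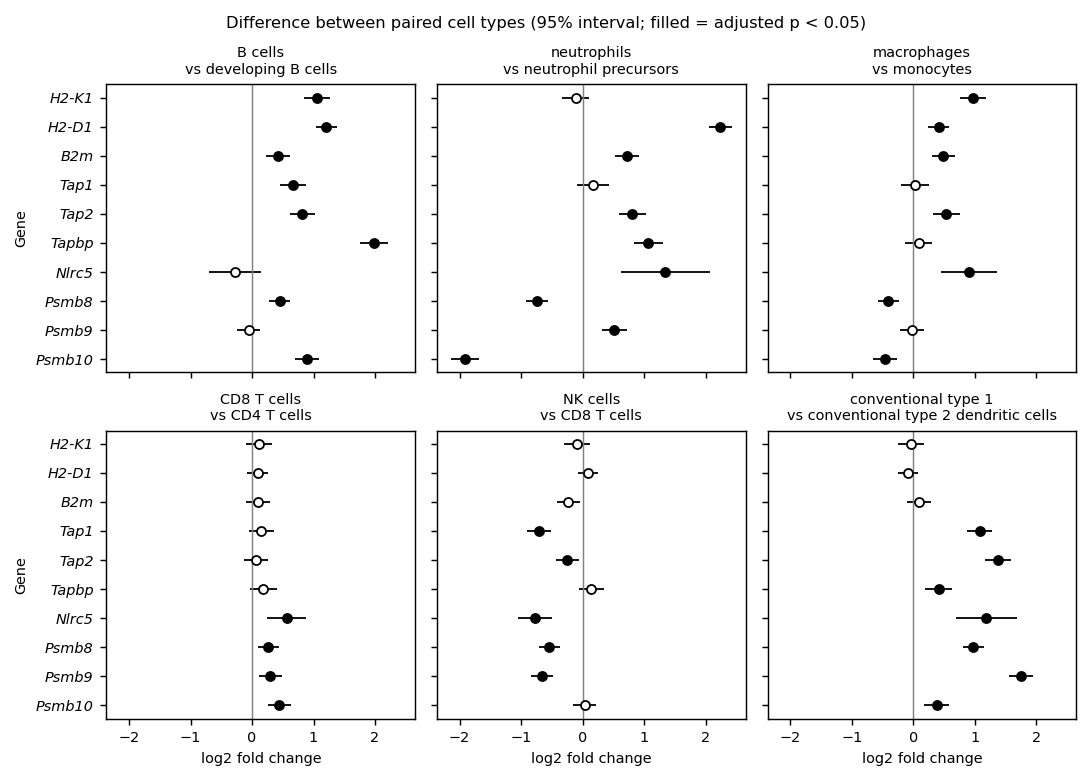
Log2 fold change of each gene between the first and second named type (TMM scaling), with 95% intervals and filled points for genes called at an adjusted p below 0.05. Psmb9, Tap2 and Tap1 stand right of 1 in the dendritic cell panel with the heavy chains at 0, and H2-D1 and Psmb10 stand at opposite ends of the neutrophil panel.

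The conditions were compared to see whether colitis, food allergy or the App alleles move these genes in cells of the brain. Hashtag groups with at least 20 cells of a type were the units of edgeR's quasi-likelihood test, in 14 types and 7 comparisons, which gave 803 tests of members. The units of a condition come from 1 library, so library and condition cannot be told apart, and p-values may be too small if hashtag groups share an animal. Comparisons with the same control share its samples.

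In most cell types these genes differed little between conditions. Of the 803 tests 1 was called, and 37 had an unadjusted p below 0.05. In 729 tests (90.8%) the difference was under 0.5 on the log2 scale, and in 645 (80.3%) the whole 95% interval lay within 1 on either side of 0. For H2-K1, H2-D1 and B2m over all comparisons, the intervals reached from -0.43 to 0.33 in CD8 T cells, from -0.43 to 0.27 in NK cells and from -0.59 to 0.42 in B cells. They were wide in neutrophils (-0.87 to 2.27), monocytes (-1.98 to 1.24), cDC2 (-1.25 to 0.83) and plasma cells (-1.81 to 3.71), where larger changes could have gone undetected.

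In App NL-G-F mice, acute colitis gave no called member in 116 tests by edgeR (4 at an unadjusted p below 0.05, none by DESeq2) where 0.429% of all tests were called, and food allergy none in 126 (4 and none) where 0.0242% were called. In WT mice, acute colitis gave none in 116 (5 at an unadjusted p below 0.05, 1 by DESeq2) where 2.16% were called, chronic colitis none in 88 (9 and none) where 2.63% were called, and food allergy none in 106 (2 and none) where 1.26% were called. App NL-G-F control against WT control gave none in 116 (7 and none), where 1.65% were called. Chronic colitis in App NL-G-F mice gave 1 call in 135 tests, where 0.217% of all tests were called. The median difference of the members lay between -0.06 (WT chronic colitis) and 0.09 (WT acute colitis), beside -0.02 over all genes in both.

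That call was H2-K1 in cDC2. The 2 chronic colitis hashtag groups had 759 and 674 CPM and the 2 App NL-G-F control groups 1489 and 1004 CPM, which do not overlap. The log2 fold change was -0.83 (SE 0.20, 95% interval -1.25 to -0.41, edgeR adjusted p = 0.0351). The whole-library levels were 718 CPM and 1267 CPM, the lowest and the highest of the 8 libraries. Macrophage markers (7 of 8 detected in both) summed to 2363 CPM in the cDC2 of the control library, 668 CPM in those of the chronic colitis library and 459 to 902 CPM in the other libraries, and their part in the difference was not tested. With 2 groups per arm, it was not called when 1 of 3 of the 4 groups was left out, namely hashtag 6 of the control or either chronic colitis group. Neither a minimum of 50 cells per group nor a gate of 1 more marker left enough cDC2 groups to test it.

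H2-K1 in neutrophils of WT acute colitis was higher than in WT control but not called. The WT acute colitis groups had 547 and 254 CPM and the WT control groups 129 and 142 CPM, without overlap, with a log2 fold change of 1.44 (SE 0.40, edgeR adjusted p = 0.103). In the WT acute colitis library as a whole neutrophils had 435 CPM, against 134 to 206 CPM in the other 7 libraries. It passed with DESeq2 (1.55, adjusted p = 0.0243), with the immediate-early set as a second term (1.45) and with the stricter gate (1.51). Macrophage markers (7 of 8 detected) summed to 60.0 CPM in these neutrophils and to 1.80 to 40.5 CPM elsewhere. B cell markers (5 of 8 detected) summed to 63.3 CPM there and to 12.4 to 38.3 CPM elsewhere, and the median UMIs per neutrophil were 1964 there and 3930 to 12409 elsewhere. The part of these in the difference was not tested.

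In WT chronic colitis the heavy chains had negative differences in several types, none called. In cDC1, H2-K1 stood at 633 and 730 CPM in the chronic colitis groups and at 1128 and 867 CPM in the control groups (log2 fold change -0.42, edgeR adjusted p = 0.0573), and H2-D1 differed by -0.31 and B2m by -0.23. Neutrophil markers in the cDC1 (5 of 8 detected) summed to 2232 CPM in the WT chronic colitis library, 4.31 CPM (4 of 8) in WT control and at most 138 CPM in the others, and their part in these differences was not tested. In NK cells H2-K1 differed by -0.26 (edgeR adjusted p = 0.102) and H2-D1 by -0.20. In monocytes H2-K1 differed by -0.97 (95% interval -1.98 to 0.03), H2-D1 by -0.73 and B2m by -0.59 (edgeR adjusted p = 0.233, 0.228 and 0.345). All 3 monocyte values passed with the immediate-early set as a second term (edgeR adjusted p = 0.00313 for H2-K1). With that term H2-K1 differed by -0.98, H2-D1 by -0.73 and B2m by -0.59. WT acute and chronic colitis share the WT control groups.

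The other members reached no call in any comparison. Over its 83 tests Psmb8 differed by -0.33 to 0.93 and Psmb9 by -0.56 to 1.03, the latter value in macrophages of App NL-G-F control against WT control (edgeR adjusted p = 0.217). Tap1 went as low as -1.22 in CD4 T cells in WT chronic colitis (edgeR adjusted p = 0.204). Nlrc5, with few counts, could be tested in 56 of the type comparisons, and only 23 of its intervals lay within 1 on either side of 0.

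**Figure D5:**
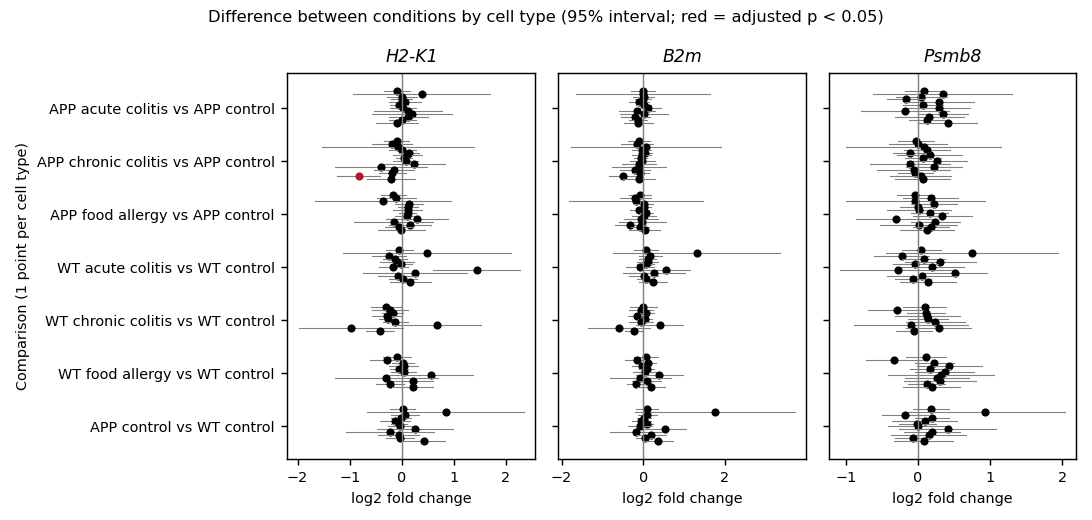
Log2 fold change of H2-K1, B2m and Psmb8 in each comparison of conditions, 1 point per cell type with its 95% interval, red where the adjusted p is below 0.05. Most points lie near 0, the only red point is H2-K1 in cDC2 at -0.83, and the widest intervals are those of plasma cells.

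Whether the treatments acted differently in App NL-G-F and WT mice was tested directly as an interaction. None of 116 member tests was called for acute colitis (edgeR, 4 at an unadjusted p below 0.05, with 0.751% of all tests called), none of 88 for chronic colitis (6, with 1.12%) and none of 97 for food allergy (3, with 0.545%).

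Few other pathway genes changed with a condition. Psme1, the PA28α gene, rose in CD8 T cells in WT acute colitis by 0.58 (edgeR adjusted p = 0.00436) and was higher in App NL-G-F than in WT control CD8 T cells by 0.41 (edgeR adjusted p = 0.017). Ifngr1, the ligand-binding chain of the interferon-γ receptor, fell in cDC2 in WT acute colitis (-1.34), in App NL-G-F acute colitis (-0.98) and in App NL-G-F chronic colitis (-1.25), the latter pair with the same control. Macrophage markers in these cDC2 summed to 459 CPM in App NL-G-F acute colitis, 668 CPM in chronic colitis and 2363 CPM in their control. In WT they summed to 506 CPM in acute colitis and 637 CPM in control. Their part in these differences was not tested. In macrophages of WT acute colitis Usp18 (5.99) and Iigp1 (3.45), an interferon-induced GTPase, rose, and in cDC1 of WT chronic colitis the interferon-induced Isg15 (-2.11) and Irf7 (-1.82) and the chaperone Hspa5 (-0.58) fell, in the cDC1 that held the neutrophil markers given above. The class II genes H2-Ab1 (4.03), H2-Eb1 (4.0), H2-Aa (3.71) and Cd74 (3.63) rose in CD8 T cells of WT acute colitis, genes that are made mainly by antigen-presenting cells, and the part of RNA from other cells in this was not tested. Against the same WT control groups, H2-Ab1 rose in CD8 T cells (4.16) and H2-Aa in ILC2 (2.70) in WT chronic colitis, and Cd74 rose in CD4 T cells (3.03) and NK cells (2.62) and Usp18 in macrophages (7.10) in WT food allergy. Ifngr1 and Irf8 (3.34) were called in cDC2 of App NL-G-F chronic colitis, the cells of the H2-K1 call.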

How the data were processed

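The authors deposited UMI counts per gene and barcode, unfiltered and not normalized, made with Cell Ranger on mm10 (6.1.2 per the labels, 4 per the file headers). Cells were called with an order-of-magnitude cutoff (3000 expected cells) and a test of barcodes with at least 500 UMIs against the profile of ranks 45000 to 90000 (1000 simulations, FDR 0.01). Cells with under 200 genes, or with mitochondrial UMIs above 5%, were dropped. Hashtags were read with a minimum of 50 counts, and cells with several hashtags were left out of hashtag groups but kept in library sums. No doublet caller was run beyond this, and cells matching several lineages were left out of the types. Sums of at least 20 cells were tested with edgeR 4.0.16 (TMM, filterByExpr, quasi-likelihood, R 4.3.3), adjusted over all genes, with DESeq2 1.42.0 as an alternative. Likeness used log2(CPM + 10). Scripts were tested on simulated counts, with 2-fold changes put into 200 genes. Of these, 76.5% were called in the right direction in CD8 T cells (App NL-G-F food allergy against control). The share was 15.5% in cDC2 (App NL-G-F chronic colitis against control) and 4% in neutrophils (App NL-G-F food allergy against control). For cDC1 against cDC2 it was 82%. Python 3.11.15, numpy 2.4.6, scipy 1.17.1, pandas 2.3.3 and matplotlib 3.10.9 were used. The members are named throughout, and of each pathway list at most 4 called genes with the largest change. The members, lists and pairs were chosen with earlier results of these data known. Comparison of macrophages with microglia was not run, since microglia reached 20 cells in 1 library.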

Additional observations from a re-analysis of the deposited data

Results flagged for a closer look

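In 11 of 110 groups of libraries (1 gene in 1 cell type) the highest or lowest library stood far from the others by Dixon's test at 95%, where chance alone gives about 1 in 20 such groups. Each library is a different condition, and library and condition cannot be told apart. Neutrophils of the WT acute colitis library had 434.77 CPM of H2-K1 (133.71 to 206.45 CPM in the other libraries), 484.74 CPM of B2m (280.46 to 362.86 CPM) and 11.66 CPM of Nlrc5 (1.03 to 5.21 CPM). Neutrophils of the WT control library had 93.48 CPM of Tap2 (45.06 to 63.3 CPM). In cDC2, the App NL-G-F control library had 118.37 CPM of Tap2 (65.96 to 85.78 CPM) and the App NL-G-F acute colitis library 260.69 CPM of Psmb9 (183.23 to 219.22 CPM). In the App NL-G-F acute colitis library Tapbp was low in CD8 T cells, at 149.62 CPM (191.79 to 218.31 CPM), and in CD4 T cells, at 123.3 CPM (179.29 to 212.78 CPM), and Nlrc5 was low in NK cells, at 28.01 CPM (43.25 to 54.62 CPM). The WT chronic colitis library had 28.75 CPM of Nlrc5 in cDC1 (16.97 to 22.05 CPM). Neutrophil precursors of the App NL-G-F chronic colitis library had 510.46 CPM of B2m (484.46 to 494.01 CPM).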

How the results depend on the processing

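No paired analysis was possible because each condition is 1 library and the hashtag numbers only name groups. For App NL-G-F acute colitis (0 called), leaving out 1 hashtag group (numbered by its hashtag) at a time gave 0 to 1, the 1 being Psmb9 in cDC2 (2.06) without App NL-G-F control replicate 6. For App NL-G-F chronic colitis (1 called), 0 were called with at least 50 cells per group and 0 with 1 more marker in the gate, since neither left enough cDC2 groups to test, and 0 to 1 when groups were left out, 0 without App NL-G-F control replicate 6 or without App NL-G-F chronic colitis replicate 6 or 7. For WT acute colitis (0 called), DESeq2, the immediate-early set as a second term and the stricter gate each gave 1, H2-K1 in neutrophils. For WT chronic colitis (0 called), no filter on low counts gave 3 (H2-K1 in monocytes and cDC1, H2-D1 in monocytes), the immediate-early set 3 (H2-K1, H2-D1 and B2m in monocytes) and the stricter gate 1 (H2-K1 in NK cells), and leaving out groups gave 0 to 2, with H2-K1 and H2-D1 in cDC1 without WT control replicate 7 and Tap1 in CD8 T cells without WT chronic colitis replicate 5. A group left alone in its arm is assumed to vary like the others. For CD8 against CD4 T cells (4 called), calling cells by the order-of-magnitude cutoff alone gave 2 and library size alone, chosen after seeing the data, gave 1. For neutrophils against precursors, library size alone called 8, with 1 higher and 7 lower, and B2m, Tap2 and Psmb9 turned from higher to lower. The type with the highest level was the same for 5 of the 10 members with UMIs per cell and for 6 with TMM factors (also chosen after seeing the data), and the lowest type for 6 and 5. The cause of these shifts was not tested. Depth limits Nlrc5 most, and small types gave no value.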
